A study of Mus musculus with 7 samples.

Results

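The sites described here are positions where IRF4 was mapped in both p65KO and WT regulatory T (Treg) cells. At each of them the authors' peak score in p65KO cells was at least 1.49-fold that in WT cells. The sites were found by pairing the summits of the p65KO and WT IRF4 lists. A pair was kept when each summit was the nearest of its list to the other, when both lay within 200 bp, and when they lay on chromosomes 1 to 19 or X. That gave 3594 pairs. The 359 pairs (9.99%) with the highest log2 ratio of p65KO score to WT score are called members below; they were thus selected on the authors' scores of both IRF4 lists. The remaining 3235 pairs served for comparison. The scores and their ratio are therefore given as a description, without a test.

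Chromatin immunoprecipitation sequencing was done on Treg cells from the spleens of C57BL/6 mice. IRF4 was precipitated from p65KO cells, labelled RelA-deficient (2 samples), and from WT cells (3 samples), in each case 48 h into activation through CD3 and CD28. RelA, also called p65, was precipitated from WT cells (2 samples) stimulated with PMA and ionomycin for 30 min. The sources used here do not say how Rela was deleted, in which cells, or how old the mice were, and binding lists hold no expression values with which the Treg identity could be checked.

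IRF4 is a transcription factor that activated lymphocytes make in response to antigen receptor signals, and effector Treg cells depend on it. Alone it binds DNA weakly. It is best known for binding next to partners: to AP-1 pairs of BATF and JUN in T cells, and to the ETS family factors PU.1 and SpiB in B cells. RelA is a subunit of the canonical NF-κB dimers, which wait in the cytoplasm bound to IκB proteins and enter the nucleus after antigen receptor, CD28 or TNF receptor family signals. Both factors thus act below the same activation signals.

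Each group came as 1 list of summits with no values per replicate: 4312 summits for p65KO IRF4, 5630 for WT IRF4 and 797 for p65. The score of a summit is a significance on a −log10 scale. It grows with read depth as well as with binding, and the read depth is unknown. The p65KO and WT lists also rest on different numbers of samples. A higher score is therefore not a measured rise in occupancy, no ratio below has a replicate error, and "strengthened" can be read here only as a higher peak score. Percentages carry 95% Wilson intervals, which cover counting error over sites only.

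Over all 3594 pairs the ratio leaned slightly the other way. Its median was -0.11 on the log2 scale, 1520 pairs scored higher in p65KO cells and 2074 scored higher in WT cells. A score at least doubled in p65KO cells (a log2 ratio of 1 or more) was found at 75 pairs (2.09%). A log2 ratio of -1 or less was found at 271 pairs (7.54%). All of those 75 pairs are members by the way members were chosen.

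The members had a median score of 38.7 in p65KO cells (range 13.0 to 151.5) and of 21.0 in WT cells (range 7.75 to 95.95). Their median log2 ratio was 0.79, a 1.73-fold higher score in p65KO cells. The ratio ran from 0.58 to 2.07. In the other pairs the median score was 29.8 in p65KO cells and 37.0 in WT cells. The rule favours a high p65KO and a low WT score: the members' median rank was 1342 of 4312 in the p65KO list and 3652 of 5630 in the WT list. Of the 359 members 284 (79.1%) scored above the median of the p65KO list, against 57.5% of all pairs, and 115 (32.0%) above the median of the WT list, against 67.4% of all pairs. The lowest 10% of the WT list held 55 members (15.3%, against 4.37% of all pairs), with WT scores from 7.75 to 14.1. The highest 10% of the p65KO list held 30 members (8.36%, against 11.8% of all pairs). The highest 10% of the WT list held 8 (2.23%, against 15.4% of all pairs), all of them among those 30.

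**Figure D1:**
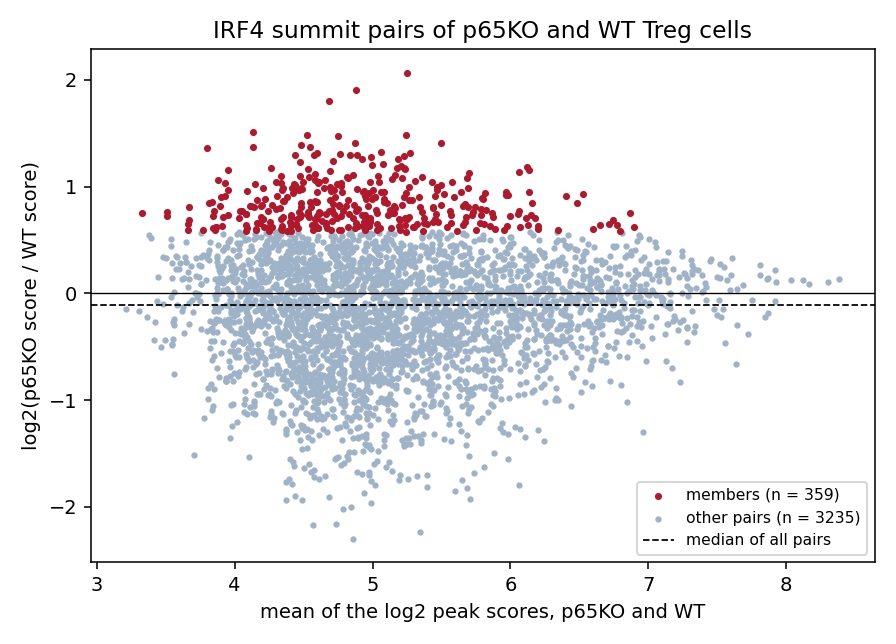
Log2 ratio of the p65KO to the WT IRF4 peak score (vertical axis) against the mean of the 2 log2 scores (horizontal axis), 1 point per pair, members in red (n = 359) and other pairs in blue-grey (n = 3235). The members lie from 0.58 upward, few of them at the highest scores, and the dashed line marks the median of all pairs at -0.11.

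The choice of members separated pairs that hardly differed at its edge. The last member, on chromosome 17 at 52175679, scored 46.4 in p65KO cells and 31.0 in WT cells, a log2 ratio of 0.5791. The first pair left out, on chromosome 15 at 74751295, scored 24.3 in p65KO cells and 16.3 in WT cells, a log2 ratio of 0.5775. The 5 members nearest the edge had ratios from 0.5791 to 0.5849, and the 5 pairs just outside from 0.5741 to 0.5775.

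Positions are those of the p65KO summit in mm9 coordinates, counted from 1. The largest ratio belonged to chromosome 16 at 95494904, with a score of 77.7 in p65KO cells and 18.6 in WT cells (log2 ratio 2.07). Its summits were 1 bp apart, it ranked 441 in the p65KO list and 4115 in the WT list, and no other IRF4 summit of either list lay within 10 kb. Next came chromosome 1 at 138794896, with 56.9 in p65KO cells and 15.2 in WT cells (1.91), and chromosome 3 at 10682130, with 48.1 in p65KO cells and 13.8 in WT cells (1.80). In these 3 the WT summit was among the weaker ones of its list, while the p65KO summit ranked 987 or better of 4312. A second IRF4 summit within 10 kb was absent at 12 of the 15 members with the largest ratios; among all 359 members 24.8% had one (26.8% of all pairs).

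A second tier of ratios lay between 1.41 and 1.51. Chromosome 18 at 66637823 scored 29.6 in p65KO cells and 10.4 in WT cells (log2 ratio 1.51). Chromosome 2 at 135937949 scored 38.5 in p65KO cells and 13.8 in WT cells (1.48), and chromosome 11 at 86300856 scored 45.0 in p65KO cells and 16.1 in WT cells (1.48). These were weak in WT cells, whereas 2 others of this tier combined a large ratio with a high p65KO score. Chromosome 3 at 123270492 scored 63.4 in p65KO cells and 22.7 in WT cells (1.48). Chromosome 14 at 62280648 scored 73.7 in p65KO cells and 27.7 in WT cells (1.41). The tier ended with chromosome 11 at 54186253, at 47.8 in p65KO cells and 18.0 in WT cells (1.41).

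The rest of the 15 largest ratios fell between 1.32 and 1.39. Chromosome 16 held a pair of them, at 57512926 and 43629153. One each stood on chromosome 10 (position 13806138), chromosome 3 (19511199), chromosome 6 (65466910) and chromosome 12 (120664884). Their scores spanned 22.4 to 60.97 in p65KO cells and 8.70 to 24.5 in WT cells. Across all 75 members with a doubled score the median was 42.8 in p65KO cells and 18.6 in WT cells.

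The strongest members by p65KO score had modest ratios. Chromosome 4 at 59695536 led with 151.5 in p65KO cells and 89.8 in WT cells (log2 ratio 0.76), which made it number 68 of the p65KO list and number 386 of the WT list. Chromosome 1 at 55487637 followed with 147 in p65KO cells and 95.95 in WT cells (0.62). Chromosome 2 at 173274509 had 137 in p65KO cells and 87.6 in WT cells (0.64).

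Among these strong sites the ratio was largest on chromosome 16 at 90331473, where the score was 127 in p65KO cells and 66.9 in WT cells (log2 ratio 0.93). Chromosome 1 at 183081550 came next, at 119.9 in p65KO cells and 66.5 in WT cells (0.85). The other 5 of the 10 highest stood on chromosome 6 (position 122477757), chromosome 11 (61377705), chromosome 8 (131073861), chromosome 10 (53974828) and chromosome 7 (16929252), with 119 to 136 in p65KO cells, 78.5 to 90.4 in WT cells and ratios from 0.59 to 0.69. None of these 10 had a p65 summit within 10 kb; 3.81% of all pairs had one, and a count of 0 in 10 is too small to differ from that.

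**Figure D2:**
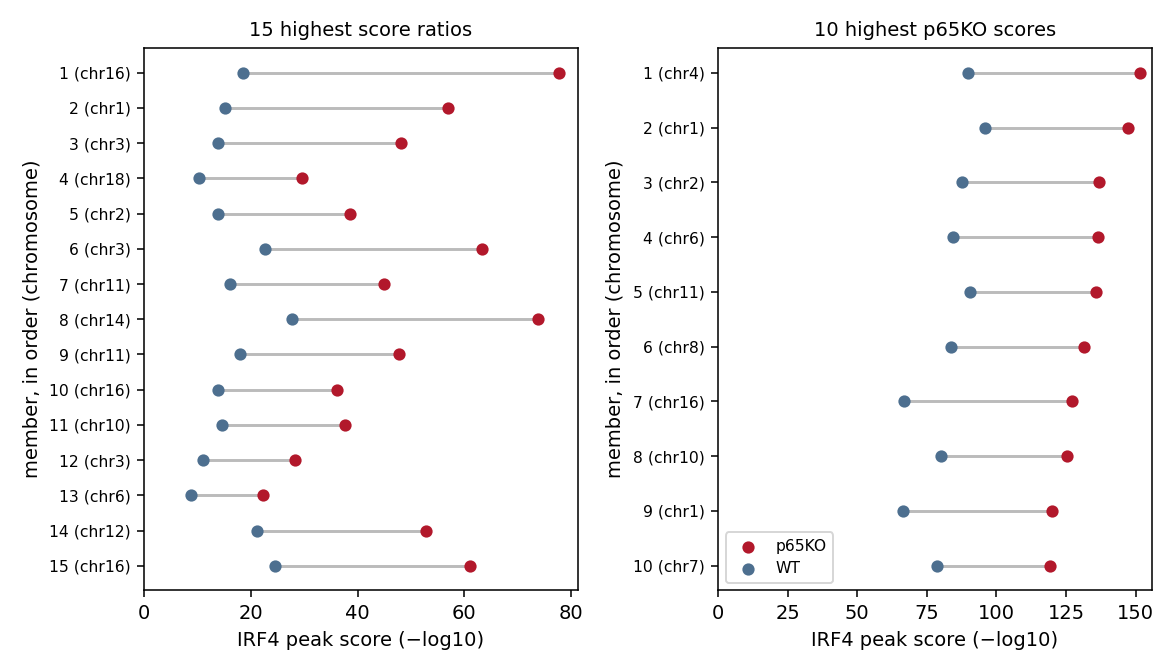
IRF4 peak score (−log10, horizontal axis) in p65KO cells (red) and WT cells (blue) at the 15 members with the largest score ratio (left) and the 10 members with the highest p65KO score (right), 1 row per member. The WT scores on the left lie between 8.70 and 27.7, and those on the right between 66.5 and 95.95.

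Members were not spread evenly over peak strength. When all pairs were divided into 10 bins of nearly equal size by mean log2 score, members made up 10.8% of the lowest bin (39 of 360, 8.03 to 14.5) and 13.1% of the third (47 of 359, 9.99 to 16.98). In the highest bin they made up 2.78% (10 of 360, 1.52 to 5.04). The ratio itself varied less at both ends, with an SD over pairs of 0.34 in the highest bin, 0.50 in the lowest and 0.68 in the third. In the lowest bin the ratio is also bounded, because both scores had to pass the cut-off of their list. Over all pairs the ratio neither rose nor fell steadily with the mean log2 score (Spearman's rho -0.0086, Pearson's r 0.011, n = 3594 pairs that share the same libraries). These correlations do not show a bend. The median ratio was -0.03 in the lowest bin, -0.22 in the fourth and -0.005 in the highest. Because strength differs, shares given below for pairs of like score are those of the other pairs weighted to the members' bins. The comparisons of next pairs and of median offsets use the other pairs unweighted.

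The p65 list was not used to choose the members and shows whether RelA had been mapped at them in WT cells, under another and shorter stimulation. A p65 summit lay within 200 bp of the p65KO summit at 5 of 359 members (1.39%, 0.596 to 3.22), against 2.87% of pairs of like score and 3.06% of all pairs. The value for pairs of like score lies inside the members' interval, so a difference was not detectable with this number of sites. The 360 pairs with the lowest ratios, a log2 ratio of -0.89 or less, had 15 with p65 (4.17%, 2.54 to 6.76). That share lies above the members' interval, and the members' share lies below this one, though the 2 intervals overlap; the difference was not tested. Without the crowded p65 regions defined in the next paragraph the share was 1.12% in members (4 of 357, 0.437 to 2.85) and 3.09% in the lowest group (11 of 356, 1.73 to 5.45). Between these ends the share followed no steady course, with 1.67% to 4.44% in the other 8 groups of nearly 360 pairs. With crowded p65 regions left out, those 8 groups ran from 0.840% to 3.10%. The group next to the lowest one (0.840%) and the group next to the members (0.847%) then both lay below the members' 1.12%. The members were thus lowest in p65 only with all pairs counted.

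Of these 5 sites, the strongest in p65 was chromosome 9 at 3024469, with a p65 score of 52.9, an IRF4 score of 75.2 in p65KO cells and one of 45.8 in WT cells. It lay in one of 39 regions where at least 3 p65 summits follow each other at no more than 50 kb, called crowded p65 regions here. Chromosome 14 at 43224605 had a p65 score of 41.7, with IRF4 at 30.8 in p65KO cells and 15.2 in WT cells. Chromosome 9 at 56071574 had a p65 score of 38.9, with IRF4 at 46.6 in p65KO cells and 28.7 in WT cells.

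The p65 summit was weaker at the other two. Chromosome 17 at 52302306 had a p65 score of 13.4, with IRF4 at 66.2 in p65KO cells and 43.9 in WT cells; its IRF4 summits were 175 bp apart, the widest offset of any member. Chromosome 10 at 13806138 had a p65 score of 4.67, with IRF4 at 37.5 in p65KO cells and 14.5 in WT cells. It was the single one of the 15 largest ratios with p65. The median score of the whole p65 list was 9.61, so 4 of the 5 lay above it. The p65 scores at other pairs were not compared, and 5 sites are too few to set the members apart.

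Wider windows gave a like picture. Within 10 kb there were 8 members with a p65 summit (2.23%, 1.13 to 4.33), against 3.59% of pairs of like score and 3.81% of all pairs. The 3 added sites were chromosome 11 at 3093751, with p65 231 bp away, chromosome 14 at 54844941, 2289 bp away, and chromosome 10 at 95870575, 7037 bp away. Within 100 kb there were 22 (6.13%, 4.08 to 9.10), against 7.01% of pairs of like score and 7.35% of all pairs. Crowded p65 regions held 2 members (0.557%, 0.153 to 2.01), 1.38% of pairs of like score and 1.14% of all pairs. Without those regions the 1.12% of members with p65 within 200 bp stood against 1.56% of pairs of like score. No p65 summit was called within 200 bp of most members, and the same held for most of all pairs.

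**Figure D3:**
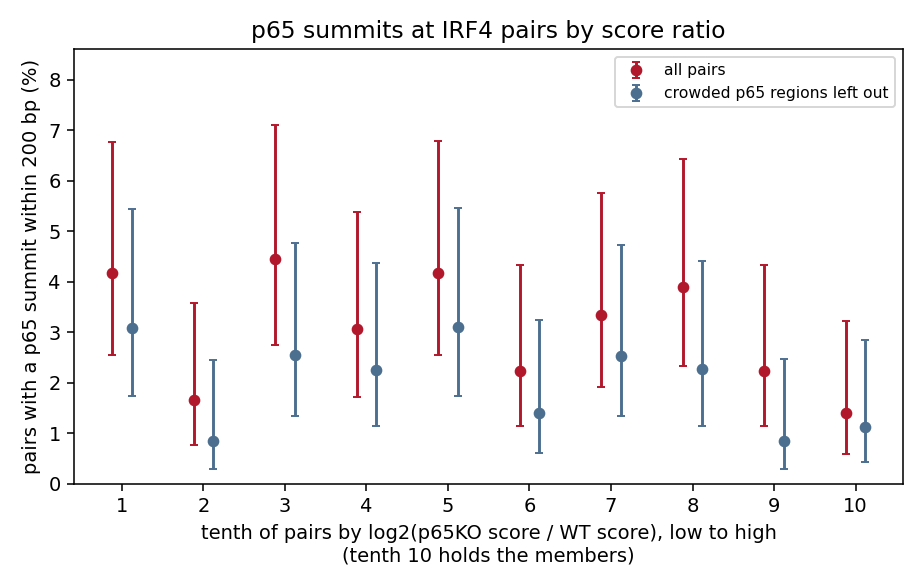
Percent of IRF4 pairs with a p65 summit within 200 bp (vertical axis) in 10 groups of nearly equal size ordered by the log2 ratio of p65KO to WT score (horizontal axis, low to high, members in group 10), for all pairs (red) and without crowded p65 regions (blue), with 95% Wilson intervals as bars. The members stand at 1.39% and the lowest group at 4.17%, and the intervals of all 10 groups overlap those of the members.

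Along the chromosomes few members had another member as the next pair. Members are 9.99% of all pairs, so most next pairs would be other pairs under any such choice. Another pair lay within 50 kb of 166 members (46.2%, 41.1 to 51.4), against 45.7% of pairs of like score and 45.9% of all pairs. The next pair of these 166 members was itself a member in 10 cases (6.02%, 3.30 to 10.7). For the other 1482 pairs with a neighbour it was a member in 155 (10.5%, 9.002 to 12.1), and for both together in 10.01%. The share of both together lies inside the members' interval. The neighbours of members had a median log2 ratio of -0.11, the same to 2 decimals as the median of all pairs.

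The next pairs at short range were few. Of the 30 members with another pair within 5 kb, none had a member as its next pair (0%, 0 to 11.4), against 30 of 294 other pairs (10.2%, 7.24 to 14.2) and 9.26% of both together. The share beside other pairs lies inside the members' interval, so a difference was not detectable with 30 sites. The median log2 ratio of the next pair was -0.23 beside members (below 0 in 20 of 30) and -0.03 beside other pairs (below 0 in 155 of 294). Within 10 kb a member was next to 1 of 65 members (1.54%, 0.272 to 8.21) and to 62 of 562 other pairs (11.03%, 8.70 to 13.9). The share of both together was 10.05%. Here the share beside other pairs lies above the members' interval. That rests on 1 of 65 members, at a limit added after the data were seen. Membership of the next pair is set by the same score ratio that chose the members. The difference was not tested, and no conclusion is drawn from it. The share beside other pairs lies inside the members' interval at 25 kb (2.88 to 11.6), 50 kb (3.30 to 10.7) and 100 kb (3.99 to 10.8). At every limit the 2 shares can count the same neighbouring pairs from either side, so they are not independent of each other. At 25 kb the shares were 5.88% beside members and 10.7% beside other pairs, and 10.2% of both together. At 100 kb they were 6.64% beside members and 10.2% beside other pairs, and 9.85% of both together. Without crowded p65 regions these counts were 0 of 29 members and 30 of 273 other pairs at 5 kb, and 1 of 63 members and 61 of 537 other pairs at 10 kb. The next pairs were of like strength, with a median geometric mean score of 31.5 beside members and 31.0 beside other pairs at 5 kb. These neighbours are measured with the same 2 lists that chose the members. Over the 324 pairs with a neighbour within 5 kb the ratios of a pair and its neighbour had Spearman's rho -0.17 and Pearson's r -0.19, and over the 1648 pairs with one within 50 kb 0.047 and 0.040; a pair can enter both as a site and as a neighbour.

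**Figure D4:**
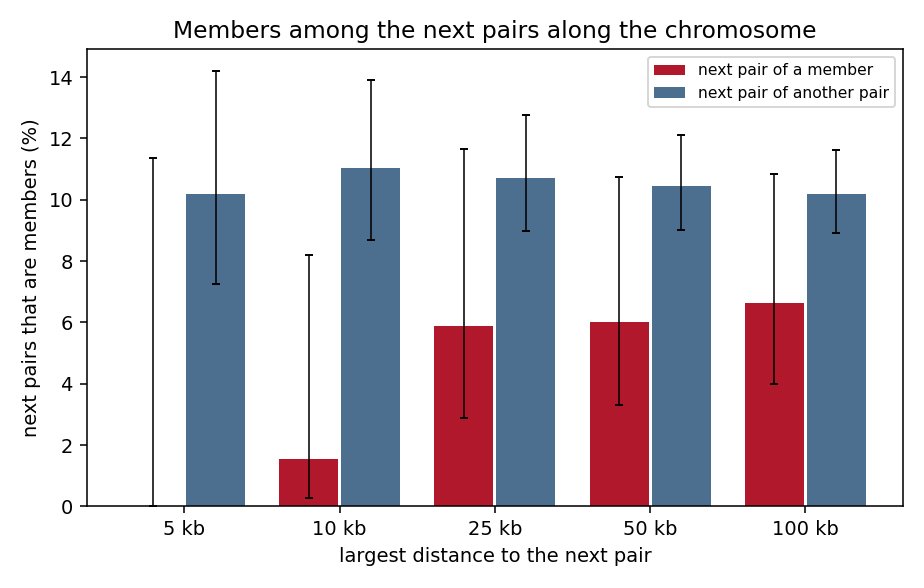
Percent of next pairs that are members (vertical axis) beside members (red) and beside other pairs (blue), for next pairs within 5, 10, 25, 50 and 100 kb (horizontal axis), with 95% Wilson intervals as bars. Beside members the share is 0% at 5 kb and 6.64% at 100 kb, and beside other pairs it lies between 10.2% and 11.03%.

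A few members did lie together. Joined at gaps of no more than 50 kb, 32 members formed 15 groups, 13 of 2 members and 2 of 3 members, and 327 stood alone. The group on chromosome 5 spanned 19.2 kb from 53786016 to 53805248. Its members scored 26.1, 32.4 and 54.2 in p65KO cells, against 15.9, 17.8 and 27.1 in WT cells, in order along the chromosome. Among them, 647 bp from the second, stood a far stronger pair at 53793444, with 211 in p65KO cells and 220 in WT cells (log2 ratio -0.06). That pair was number 17 of the p65KO list and number 18 of the WT list. The strongest pair of the stretch thus scored alike in both lists, while the weaker members around it scored higher in p65KO cells, as members were chosen to. Summits called in WT cells alone and in p65KO cells alone, with none of the other list within 1 kb, also lay within 50 kb of it.

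The group on chromosome 16 spanned 65.2 kb from 43629153 to 43694348. Its members scored 60.97, 21.6 and 91.6 in p65KO cells, against 24.5, 11.04 and 54.96 in WT cells. A pair between them at 43655460 scored 81.3 in p65KO cells and 65.3 in WT cells (log2 ratio 0.32). The next pair beyond the group, at 43719418, went the other way, with 73.6 in p65KO cells and 102.5 in WT cells (-0.48). Both groups lay outside crowded p65 regions.

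**Figure D5:**
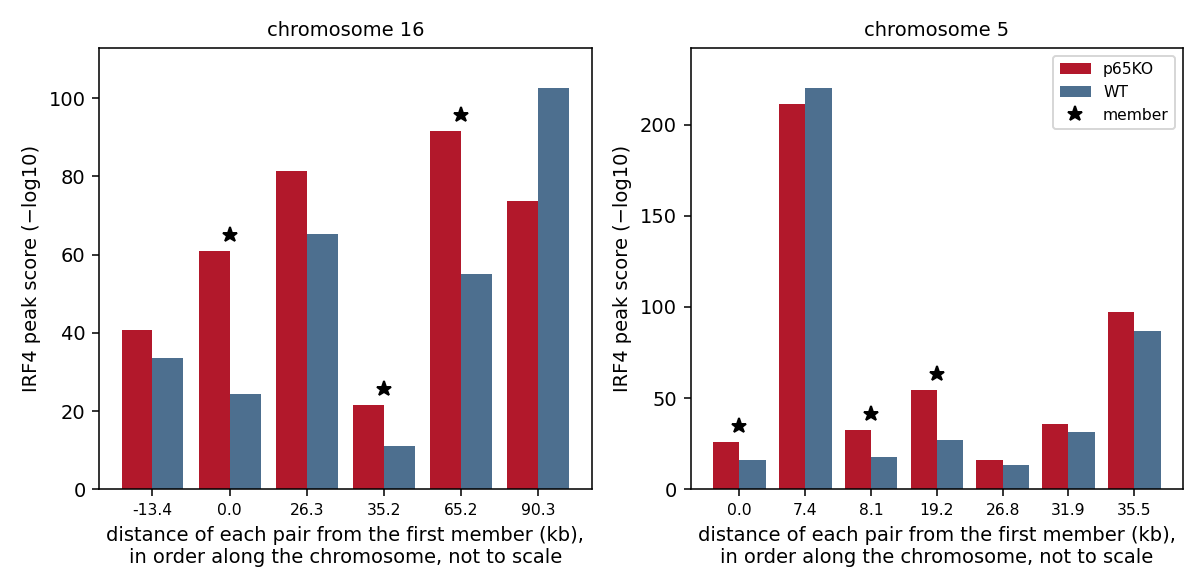
IRF4 peak score (−log10, vertical axis) in p65KO cells (red) and WT cells (blue) at each pair in and within 50 kb of the groups of 3 members on chromosomes 16 and 5, in order along the chromosome (horizontal axis, distance from the first member in kb). Stars mark members; the tallest pair on the right, at 211 in p65KO and 220 in WT cells, is not one.

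In the next 3 measures of the surroundings the value for pairs of like score lay inside the members' interval. Another IRF4 summit of either list lay within 10 kb of 89 members (24.8%, 20.6 to 29.5), against 27.1% of pairs of like score and 26.8% of all pairs. A summit called in p65KO cells with no WT summit within 1 kb lay within 50 kb of 25 members (6.96%, 4.76 to 10.1), against 9.22% of pairs of like score and 8.85% of all pairs. A summit called in WT cells with no p65KO summit within 1 kb lay within 50 kb of 89 members (24.8%, 20.6 to 29.5), against 26.4% of pairs of like score and 26.5% of all pairs. The 617 sites called in p65KO cells alone had a median score of 17.4 and have no WT score, so they could not be members.

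The p65KO and WT summits of a member lay at nearly the same base. The median distance was 19 bp, the middle 50% of members lay between 7 and 37.5 bp, and the widest distance was 175 bp. Other pairs had a median of 17 bp. Summits were no more than 20 bp apart at 191 members (53.2%, 48.0 to 58.3), against 51.8% of pairs of like score and 55.5% of all pairs. The p65KO summit had the higher coordinate at 183 members, the lower at 168 and the same at 8, so no side was favoured.

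Every chromosome held members. The share of pairs that were members was highest on chromosome 17, with 21 of 127 pairs (16.5%, 11.1 to 24.0), and on chromosome 5, with 27 of 187 (14.4%, 10.1 to 20.2). It was lowest on chromosome X, with 2 of 43 (4.65%, 1.28 to 15.5), and on chromosome 8, with 8 of 133 (6.02%, 3.08 to 11.4). The interval lay wholly above the 9.99% of all pairs on chromosomes 17 and 5, on chromosome 5 only just, and spanned it on the other 18. With an interval for every chromosome, some may miss the share of all pairs through counting error alone. Sites close together, such as the group of 3 members on chromosome 5, are also not independent. No difference between chromosomes was tested. The median ratio of all pairs on chromosome 17 was -0.09 and on chromosome 5 -0.12, close to -0.11 over all chromosomes.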

How the data were processed

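The authors deposited 1 list of 1 bp peak summits per group, each with a −log10 significance score. The sources used here leave unsaid whether that is the −log10 of a p-value or of a q-value. MACS2 2.1.0, Subread, featureCounts and build mm9 are named in the submitters' processing notes, without roles or settings. Per the peak names, peaks were called without an input library, at q = 1e-06 for IRF4 and 0.05 for p65. The way replicates were combined, and whether each was a separate animal, is not given in these sources.

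Summit positions were taken as deposited and counted from 1. Members and comparisons were chosen with earlier results of these data known. Shares in other pairs were weighted to the members over 10 bins of mean log2 score. No test was made, since sites are not replicates and the scores chose the members; Wilson intervals are 95%. Pairing and weighting were tested on simulated data.

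Named are the 15 members with the largest ratio, the 10 with the highest p65KO score, those with p65 within 200 bp and the 5 pairs on each side of the edge; members with p65 within 10 kb, the groups of 3 and their surrounding pairs were named after their values were seen. No genome or annotation of mm9 was used here, and the gene and promoter tables at hand describe GRCm38.p6, so the planned sequence motifs, gene assignment and gene lists were not analysed here. Python 3.11.15, numpy 2.4.6, pandas 2.3.3 and matplotlib 3.10.9 were used.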

Additional observations from a re-analysis of the deposited data

How the results depend on the processing

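The share of members with p65 (1.39%) and with another IRF4 summit within 10 kb (24.8%) stayed inside its 95% interval under each of the 13 alternatives run. The number of members was 179 with the highest 5% of pairs taken and 718 with the highest 20%, by construction, and between 251 and 362 otherwise. Pairs of like score had p65 in 2.87%, in 1.55% without crowded p65 regions and in 2.30% with p65 sought within 100 bp. Crowded p65 regions are defined by their p65 summits, and a shorter distance can only find the same or fewer summits. The share of members whose next pair within 50 kb was a member (6.02%) was 0% with the highest 5% taken and 24.6% with the highest 20%, where members are fewer or more by construction. With shorter limits, added after seeing the data, it was 0% at 5 kb and 1.54% at 10 kb; the cause was not tested. Which sites are members depends on the ranking: 316 of 359 remained when ranked within score bins, 287 when ranked by the difference of score percentiles, and 190 of the 251 chosen from pairs with both scores above 20 were members before.

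No paired analysis was possible because each list pools the replicates of its group, and no replicate was left out for the same reason. Read depth is unknown, so no value here separates a change in binding from one in depth. The planned motif alternatives were not run.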

Other observations

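Peak scores came in steps. The 4312 p65KO IRF4 summits held 3067 different scores and the 5630 WT IRF4 summits 4149, and the commonest values were shared by 42 p65KO summits (18.3) and 54 WT summits (13.8). Among the 359 members there were 343 different p65KO scores and 297 different WT scores, with 10 members at the same WT score of 14.5. Members at such a step differ in their ratio through the p65KO score alone.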
